A study of Mus musculus with 65 samples.

Results

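Gene expression in neuromesodermal progenitors (NMPs) was compared with that in the neural progenitors formed from them over the next day of culture. NMPs are posterior cells of the embryo that can form either spinal cord or trunk mesoderm. All libraries of day 3 NMPs and of day 4 progenitors were used, 19 of the 65 libraries of the series. HM1 mouse embryonic stem (ES) cells, a single line, received bFGF and LGK until day 2 and then, until day 3, bFGF with CHIR99021, SB-431542 and DMH1. CHIR99021 blocks GSK3 and so activates Wnt signaling, and the last 2 compounds block the receptors of Nodal/TGF-beta and of BMP ligands. The 3 NMP libraries were taken at this point, with no SAG. From day 3 the medium held retinoic acid (RA) and 0, 10, 100 or 500 nM SAG, an agonist of Smoothened that stands in for the Sonic hedgehog (Shh) signal. On day 4 fixed cells were stained for intracellular proteins, gated on SOX2 and sorted by 4 transcription factor proteins into the ventral progenitor types p3 (NKX2.2), pMN (OLIG2), p2 (NKX6.1 with PAX6) and p0-1 (PAX6 without NKX6.1). Of the 16 day 4 libraries, p0-1 gave 5 (2 at 0 nM and 3 at 10 nM SAG), p2 gave 3 (1 at 10 nM and 2 at 100 nM), pMN gave 4 (2 at 100 nM and 2 at 500 nM) and p3 gave 4 (1 at 100 nM and 3 at 500 nM). The gate used for the NMP libraries is not given in the sources used here. Replicates were separate differentiations of the same line. Day of culture, medium and sort differ between NMPs and day 4 cells together, so their contributions cannot be told apart.

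NMPs are maintained by Wnt and FGF signals, under which they co-express the mesodermal T-box factor T (Brachyury) and the neural factor SOX2, together with caudal (Cdx) and other posterior factors. Wnt ligands act through Frizzled receptors and beta-catenin with TCF/LEF factors, and FGF ligands act through receptor tyrosine kinases and ERK, whose induced genes include many feedback inhibitors. RA made by the trunk mesoderm binds nuclear receptors on response elements in DNA. It opposes FGF and Wnt activity in the neural plate and promotes neural genes, after which graded Shh sets the ventral progenitor domains.

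The deposited values are read counts per gene divided by a size factor for each library, called normalized reads here. Libraries held 7615114 to 13484815 reads assigned to genes. Genes with at least 1 read numbered 15429, 15963 and 14070 in NMP replicates 1, 2 and 3, against 9718 to 14433 (median 13174) in day 4 libraries, so that detection moved with the comparison. The lowest number was in p3 at 100 nM SAG, replicate 3, and the 5 day 4 libraries with the fewest genes, called those of low detection below, had at most 12319. On principal components of the 500 genes with the highest variance, the first component held 28.9% of it. NMP libraries lay between -86.12 and -77.94 on it and day 4 libraries between -13.82 and 56.41, with no overlap. The 5 day 4 libraries of low detection lay farthest from the NMPs, at 32.25 to 56.41, so that this component moved with detection too. The labels were checked against marker genes. T, Nkx1-2 and Cdx2 were present in all 3 NMP libraries beside Sox2, which was lower there than in day 4 cells, and the transcripts of the sorting factors, given by type below, followed the sort in part.

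**Figure D1:**
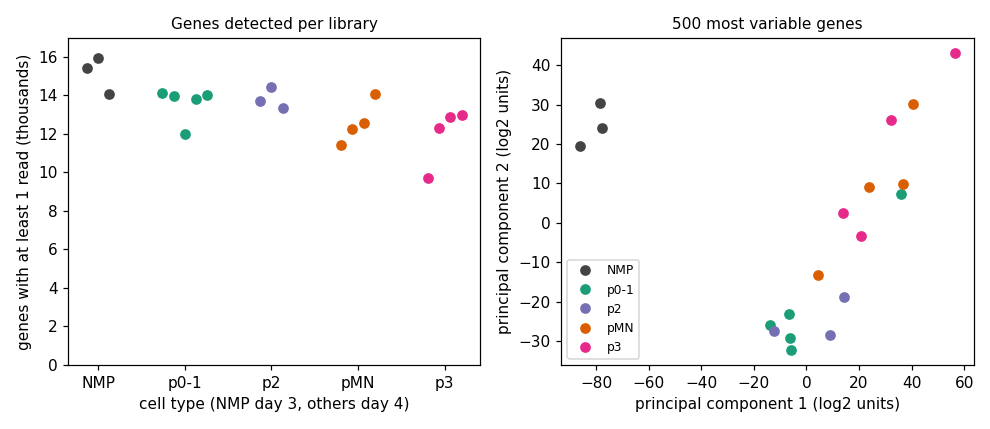
Left, number of genes with at least 1 read in each library (vertical axis, genes) by group. Right, the first and second principal components of the 500 most variable genes (28.9% and 10.3% of the variance), each point a library. The NMP libraries detected 14070 to 15963 genes and lie apart from all day 4 libraries on the first component. The day 4 libraries of low detection lie farthest from them on it.

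To ask what changed on leaving the NMP state, the mean of the 16 day 4 libraries was compared with the mean of the 3 NMP libraries in a limma model over 13939 genes. Of these, 510 (3.66%) differed by more than 2-fold at an adjusted p below 0.01, the rule used for every call below. In day 4 cells 198 genes (1.42%) were higher and 312 (2.24%) were lower. The model treated the 16 day 4 libraries as independent. Types sorted from the same condition may share a culture, so the adjusted p values may be too low. The median log2 change of all genes tested was -0.35, and changes of gene groups are read beside that value. For 876 genes (6.28%) no day 4 library overlapped the NMP libraries, 222 of them (1.59%) higher in day 4 cells and 654 (4.69%) lower. The count of calls was 297 without NMP replicate 2 and 333 without replicate 3. It was 692 (291 higher, 401 lower) without the 5 day 4 libraries of low detection and 265 (149 higher, 116 lower) with the number of genes detected as a covariate, and the share of calls that were higher was 57.9% in DESeq2 and 54.6% after quantile normalisation, against 38.8% here. The median of all genes was -0.01 after quantile normalisation, -0.07 in edgeR and -0.11 in DESeq2, and it turned to 0.12 with the covariate.

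Among 375 genes in 23 groups chosen by pathway or cell type, 302 could be tested. Of these, 37 were called higher and 29 lower in day 4 cells. The genes called lower included 6 of 12 NMP factors, 5 of 8 epithelial adhesion genes and 4 of 10 epiblast genes, and those called higher included 6 of 18 genes of the RA pathway, 7 of 18 of neural progenitors, 3 of 11 Wnt receptors and 3 of 5 FGF receptors. Of the genes named below, DESeq2 did not call Evx1 (adjusted p = 0.0531), Cdx1 (0.0399), Wnt3a (0.0668), Rspo3 (0.227), Notum (0.0304), Dkk1 (0.0255), Fgf17 (0.134), Zfp42 (0.0298), Cldn6 (0.0211) and Bmp4 (0.0776). Other genes, to which DESeq2 gave no adjusted p, were not called there either and are not listed. In the epiblast group, for example, it called 2 of 10 genes lower, against 4 of 10 in limma. edgeR did not call Olig2 and Neurog2 (adjusted p = 1.0 for both), Sox9 (0.0935), Rspo3 (0.0292), Sox21 (0.025), Mycn (0.0188), Bmp4 (0.0171), Nkx2-9 (0.0122) and Irx3 (0.0108). Some genes named below were called there but not in limma. Besides Meox1, DESeq2 called Axin2 (0.00419), Gbx2 (0.00264), Fzd10 (0.000591) and Dll3 (0.000503) lower and Rara (0.000428), Gas1 (0.0044), Scube2 (9.45e-24) and Sox3 (0.00786) higher. edgeR called Fzd10 (0.00501) and Dll3 (0.00294) lower and Cdh2 (0.00464) higher. With the number of genes detected as a covariate 21 of the 66 called list genes were not called and 0 turned direction. These were Cdx2 (0.0122), Notum (0.0655), Rspo3 (0.0715), Ror2 (0.0814), Dkk1 (0.112), Fgf15 (0.0319), Etv4 (0.0248), Pou5f1 (0.155), Cdh1 (0.0596), Epcam (0.0182), Cldn6 (0.13), Cldn7 (0.0446), Dhrs3 (0.0319), Sox2 (0.0144), Sox9 (0.0354), Bmp4 (0.157), Hes7 (0.0225), Neurog2 (0.0283), Nkx2-9 (0.0183), Mycn (0.239) and Mycl (0.05). In a fit over all 65 libraries the calls of Lef1 (0.131), Ror2 (0.0177), Fgf15 (0.0189), Dnmt3b (0.244), Cdh1 (0.0888), Epcam (0.0311), Cldn7 (0.0141), Id2 (0.0155), Bmp4 (0.0276), Cdh6 (0.0194), Mycn (0.0126), Slc2a3 (0.0462) and Slc16a3 (0.244) were lost. In sorted bulk samples, fewer cells with a transcript cannot be told apart from less of it in each cell.

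**Figure D2:**
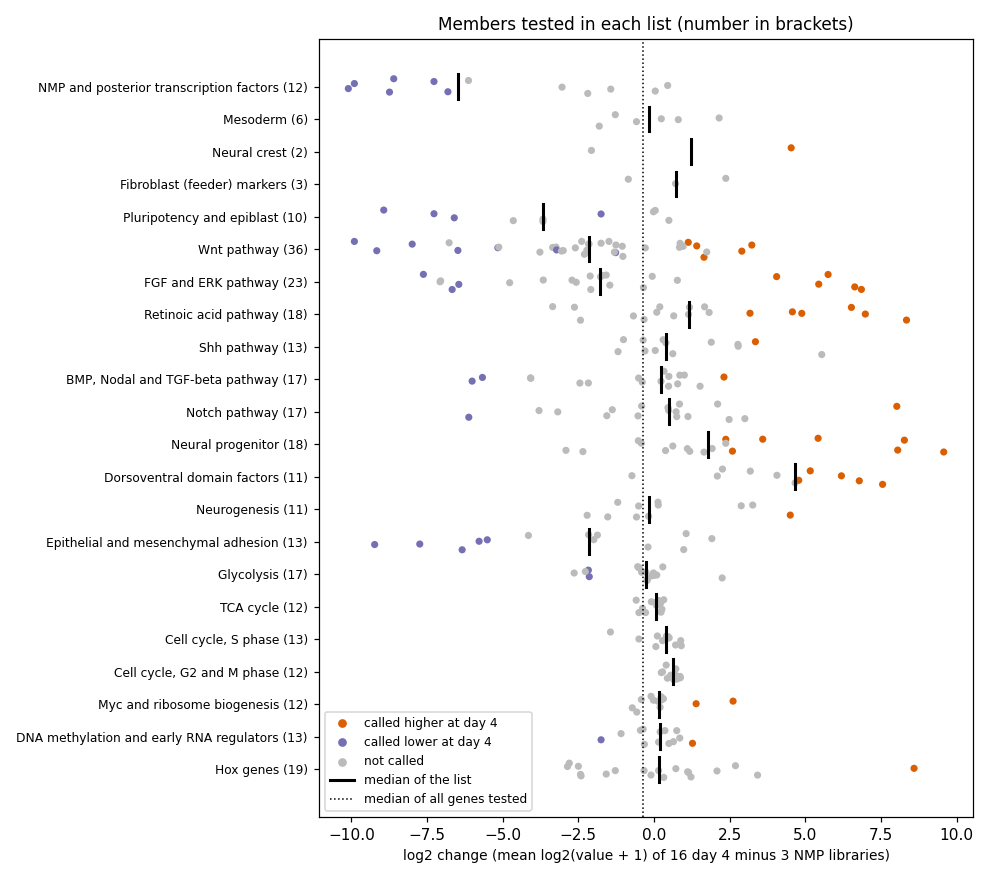
Log2 change of day 4 cells against NMPs (horizontal axis) for each tested member of the gene groups, each point a gene coloured by its call, with a bar at the median of the group. The dotted line is the median of all 13939 genes (-0.35). NMP factors have the lowest median (-6.47) and dorsoventral domain factors the highest (4.66). The latter group includes the 4 genes whose proteins set the sort.

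Of 12 NMP and posterior transcription factors, 6 fell and none rose, with a median log2 change of -6.47. NMP values are given in the order of replicates 1, 2 and 3, and day 4 values as the lowest, median and highest of the 16 libraries. T, which drives mesoderm formation, had 909, 3749 and 2562 normalized reads in the NMP libraries and 0, 0 and 76.2 in day 4 libraries. It was at 0 in 12 of the 16 day 4 libraries, and the groups did not overlap (log2 change -10.1 ± 1.31, SE, adjusted p = 2.56e-05). Sp5, a transcription factor induced by Wnt, had 955, 1022 and 1064 normalized reads in NMPs. Among day 4 cells a single library had reads of Sp5 (1.57), and the log2 change was -9.9 ± 0.65 (adjusted p = 3.38e-09). Evx1, a homeobox factor of the posterior primitive streak, was read at 459.7, 651 and 259.5 in NMPs and at 0 in all 16 day 4 libraries, at least 117-fold lower (adjusted p = 7.56e-09), with exons that overlap those of Evx1os on the other strand. The strand setting of the counting is not stated.

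All 3 caudal genes, which specify posterior identity, were called lower. Cdx1 had 839, 425 and 759.6 normalized reads in NMPs and 0, 0 and 96 on day 4 (adjusted p = 2.17e-05). Cdx4 had 188, 129 and 164 in NMPs and reads in 1 day 4 library only (0.8, adjusted p = 5.23e-08). Cdx2 had 251, 451 and 55.7 against 0, 0 and 225, and here the ranges overlapped: 13 of 16 day 4 libraries were at 0, and the highest lay above the lowest NMP library. Its call (log2 change -6.81 ± 1.17, adjusted p = 0.000653) was lost without NMP replicate 2 (adjusted p = 0.0123). Nkx1-2, another homeobox gene of NMPs, had 872, 1448 and 1563 in NMPs and 0, 36.9 and 229.7 on day 4. The ranges did not overlap, but the test did not pass (log2 change -6.13 ± 1.6, adjusted p = 0.0214), and it passed in 5 of 33 alternatives, among them that without the 5 libraries of low detection (adjusted p = 0.00617). Tbx6, which commits cells to paraxial mesoderm, had few reads in either group (48.8, 19.1 and 4.08 in NMPs, 0, 0 and 93 on day 4, adjusted p = 0.441).

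Not all posterior factors were called. Sp8 had 379, 1059 and 2464 normalized reads in NMPs and 264, 1581 and 3478 on day 4 (adjusted p = 0.684), and Sall4, a zinc finger factor of stem and early embryonic cells, had 1922, 1225 and 1786 against 1215, 1454 and 4415 (adjusted p = 0.964). Gbx2 and Mixl1 had log2 changes of -1.43 and -3.04 (adjusted p = 0.0172 and 0.272).

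The promoters of T and Sp5 are shown because both genes had among the steepest falls and both hold a TCF/LEF sequence. Each sequence is the 250 bases before the transcription start in RefSeq on build GRCm38.p6, 5′ to 3′ in the direction of the gene, at chr17:8434173-8434422 (plus strand) for T and chr2:70474673-70474922 (plus strand) for Sp5. Capitals mark the match to CTTTGAT or CTTTGAA on either strand.
T: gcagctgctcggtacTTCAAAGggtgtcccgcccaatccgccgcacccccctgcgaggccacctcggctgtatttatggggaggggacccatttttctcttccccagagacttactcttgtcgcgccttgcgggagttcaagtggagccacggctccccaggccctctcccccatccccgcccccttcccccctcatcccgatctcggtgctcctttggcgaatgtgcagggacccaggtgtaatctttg
Sp5: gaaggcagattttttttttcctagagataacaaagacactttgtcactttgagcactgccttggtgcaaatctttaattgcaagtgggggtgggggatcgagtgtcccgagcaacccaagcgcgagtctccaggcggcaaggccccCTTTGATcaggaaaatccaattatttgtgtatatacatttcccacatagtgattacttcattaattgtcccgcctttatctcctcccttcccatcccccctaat
The T match lies 235 to 229 bases before the start and reads CTTTGAA on the other strand. In Sp5 the match lies 104 to 98 bases before the start. Of 32851 promoter windows of 300 bases (250 before and 50 after the start) 2842 (8.65%) held such a sequence, as did 3 of 11 windows of NMP factors (Sp5, Sp8 and T) and 3 of 34 of the Wnt pathway (Dkk1, Sp5 and Wnt5b). Sp8 was not called, and a match is a description of the letters only.

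**Figure D3:**
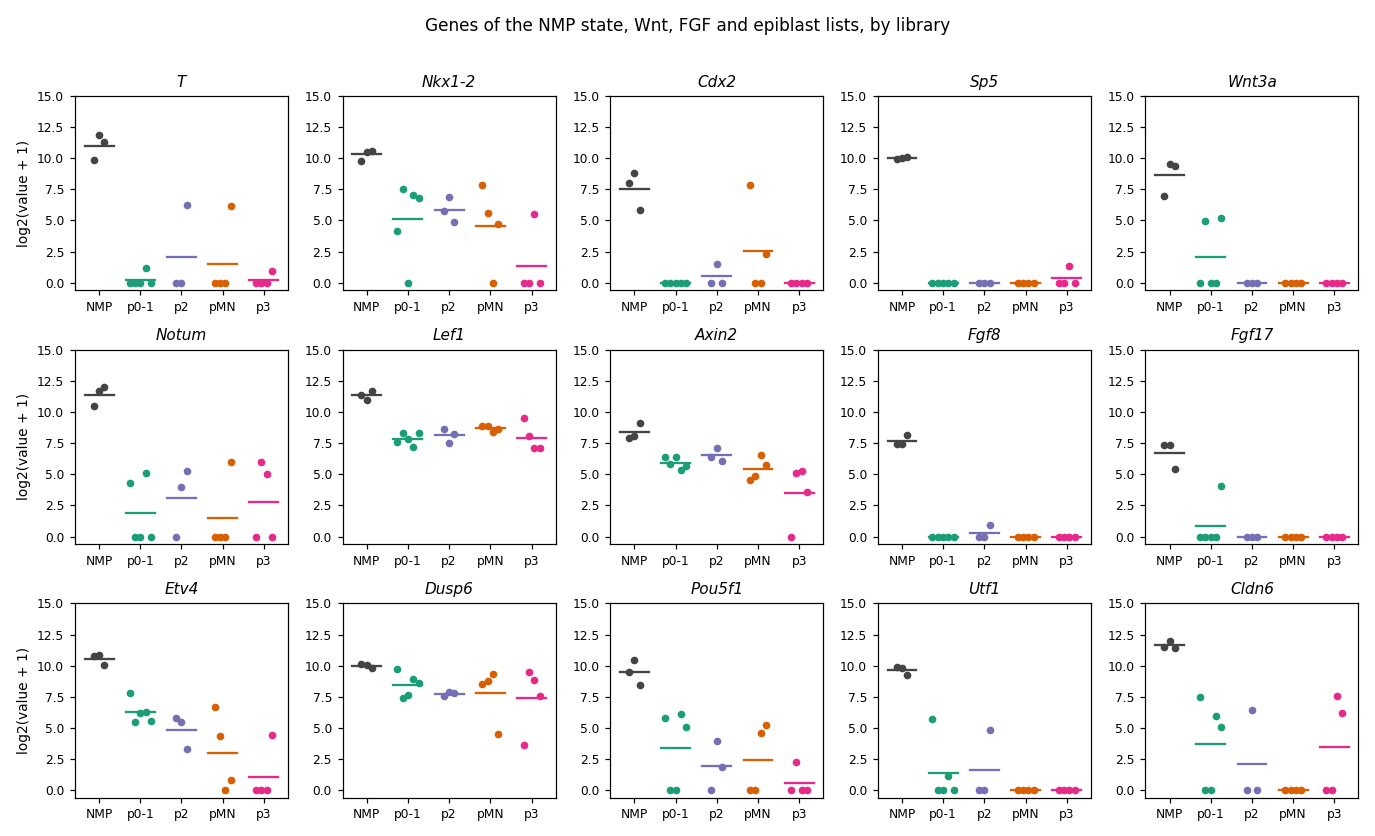
Normalized reads, as log2(value + 1) on the vertical axis, of 15 genes in the NMP and day 4 libraries, grouped by type. Each point is a library and each bar a group mean. T had 909 to 3749 normalized reads in NMPs and at most 76.2 on day 4. Nkx1-2, Axin2 and Dusp6 did not pass the test.

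Markers of other cells that the cultures could hold were read as whole groups. Of 12 mesoderm genes 6 could be tested and limma called none, with 0 at an unadjusted p below 0.05 (median -0.17, a sign that depended on the scaling). edgeR called 0 of them and DESeq2 1, Meox1, which was at 0 in all NMP and in 9 of 16 day 4 libraries. Their summed level was 107 to 309 normalized reads in NMPs and 106 to 668 on day 4, and Msgn1 and Hand1 were at 0 in all 19 libraries. None of 8 endoderm genes reached the mean of 10 needed for a test, and their sum was 11.3 to 54.4 in NMPs and 0 to 78.5 on day 4, with Sox17, Cer1 and Ttr at 0 throughout. Of 8 fibroblast genes, included because the ES cells are kept on fibroblast feeders, 3 were tested and none called, with 0 at an unadjusted p below 0.05 and 0 in edgeR and DESeq2 (sum 48.9 to 421 in NMPs, 0 to 779 on day 4). Over all 13939 genes tested 2550 had an unadjusted p below 0.05. A count of 0 among 6 mesoderm or 3 fibroblast genes therefore says little. In the neural crest group 1 of 2 tested genes was called. This was Cdh6, a cadherin that is also made by neural tube cells, with 30.6, 72 and 126 against 807, 1519.8 and 2710.0 (log2 change 4.53 ± 0.36, adjusted p = 3.64e-08), while Sox10, Foxd3, Tfap2a and Tfap2b had too few reads for a test. The sum of the neural crest group was 146 to 200.1 normalized reads in NMPs and 812 to 2847 on day 4, and of its 7 members other than Cdh6 the highest was Ets1, with a mean of 61.9 in NMPs and 34.3 on day 4.

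Wnt pathway genes moved in both directions, and so did receptors (3 higher, 1 lower), antagonists (1 and 1) and transducers (1 and 1). Of 36 tested members, 7 fell and 5 rose, and the median was -2.15. The median was -1.18 in edgeR, -1.19 after quantile normalisation and -0.71 with the number of genes detected as a covariate, where 3 fell and 5 rose. Among ligands, Wnt3a, which maintains NMPs, had 124, 756 and 649.6 normalized reads in NMPs and 0, 0 and 35.8 on day 4, where 14 of 16 libraries were at 0 (log2 change -7.99 ± 1.07, adjusted p = 3.81e-05). Wnt8a, another ligand of the caudal embryo, had 2731, 2256 and 2507 against 0, 62.3 and 552, without overlap and without a call (adjusted p = 0.0309). Both were lower in every day 4 library than in any NMP library. Wnt5a and Wnt5b, ligands of the non-canonical branch, had log2 changes of -2.6 and -2.3 (adjusted p = 0.351 and 0.0583). Rspo3, a secreted agonist that stabilises Frizzled receptors, fell from 87.6, 289 and 145 to 0, 0 and 34.9 (adjusted p = 0.00106, and 0.016 without NMP replicate 2).

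Feedback genes and antagonists of the pathway were lower or did not pass, apart from Sfrp1. Notum, a secreted enzyme that inactivates Wnt ligands, had 1395, 3282 and 4161 normalized reads in NMPs and 0, 0 and 61.1 on day 4 (log2 change -9.16 ± 1.64, adjusted p = 0.000959). The groups were far apart, but the call was lost without NMP replicate 2 (adjusted p = 0.0115) or 3 (0.0117). Axin2, a scaffold of the destruction complex and a common readout of canonical signaling, had 237, 263 and 556 against 0, 50.4 and 139, with no overlap but an adjusted p of 0.0643. DESeq2 called it lower (adjusted p = 0.00419). Nkd1, Znrf3, Rnf43 and Apcdd1, which all limit the pathway, had negative changes of -1.31 to -5.13 (log2) that did not pass. Lef1, a nuclear partner of beta-catenin, fell from 2685, 2022 and 3317 to 135, 311 and 719.9 (log2 change -3.22 ± 0.43, adjusted p = 4.21e-05). The secreted antagonist Dkk1 had 44.6, 161 and 80.2 in NMPs and 0, 0 and 63.9 on day 4 (adjusted p = 0.00295, and 0.0103 to 0.0373 without any single NMP library).

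Receptors and transducers gave most of the Wnt genes that rose. Fzd7, a Frizzled receptor, had 273, 376 and 319 normalized reads in NMPs and 1249, 2529 and 3964 on day 4 (log2 change 2.9 ± 0.28, adjusted p = 4.75e-07). Fzd3 and Fzd2 rose by 1.65 and 1.13 on the same scale (adjusted p = 0.000549 and 4.4e-05). Fzd10 had a change of -3.35 that did not pass in limma (adjusted p = 0.0177) but did in edgeR (0.00501) and DESeq2 (0.000591). Ror2, a receptor of non-canonical ligands, was lower on day 4 (1572, 2099.6 and 2786 against 576, 887 and 1640.0, adjusted p = 0.00512) with overlapping ranges, and its call was lost without NMP replicate 2 or 3 (0.0387 and 0.0743). Genes that act after the receptors or outside the cell also rose. Ctnnb1, which encodes beta-catenin, rose from 1683, 2801 and 4876 to 5356, 7749 and 9242 (log2 change 1.41 ± 0.2, adjusted p = 8.87e-05). Sfrp1, a secreted antagonist of the neural tube, had 1072, 1122 and 453 in NMPs and 5095, 7222 and 14185 on day 4 (log2 change 3.23 ± 0.26, adjusted p = 4.81e-08). All day 4 libraries lay above all NMP libraries for these genes other than Ror2 and Fzd10.

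The FGF group was split between ligands, receptors and targets. It had 23 tested members, 5 higher and 3 lower, with a median of -1.77. The median was -1.19 in edgeR and -0.63 with the number of genes detected as a covariate, where 4 were higher and 2 lower. Fgf8, a ligand of the tail end of the embryo, had 172, 172 and 285 normalized reads in NMPs and reads in 1 day 4 library only (0.907, log2 change -7.62 ± 0.6, adjusted p = 3.64e-08). Fgf17, a close relative, had 159.6, 161 and 42.1 in NMPs and was at 0 in 15 of 16 day 4 libraries (highest 15.6, adjusted p = 1.94e-05). Other ligands rose. Fgf15, a ligand of the neural tube, had 0, 10.1 and 81.5 in NMPs against 16.4, 1131 and 3860.0 on day 4 with overlapping ranges (adjusted p = 0.000403, and 0.0108 without NMP replicate 1), and Fgf3 was at 0 in all NMP libraries against 0, 126 and 863 (adjusted p = 0.00431, and 0.0281 to 0.0309 without any single NMP library).

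Among FGF receptors 3 of 5 rose with no overlap. Fgfr2 had 200.1, 181 and 92.4 normalized reads in NMPs and 885, 2751 and 5159 on day 4 (log2 change 4.05 ± 0.27, adjusted p = 4.29e-09). Fgfr3 had 16.5, 37.1 and 4.08 against 186, 695 and 1279 (5.44 ± 0.56, adjusted p = 1.23e-06) and Fgfr4 9.09, 3.38 and 6.79 against 71.2, 384 and 681 (5.75 ± 0.56, adjusted p = 5.19e-07). Fgfr1 had 2908, 3335 and 3437 against 1789.7, 2492 and 3870.0 (adjusted p = 0.456). Of 12 ERK targets and feedback inhibitors 1 was called. This was Etv4, an ETS factor, with 1806, 1813 and 1045 in NMPs and 0, 31.7 and 229.8 on day 4 (log2 change -6.67 ± 1.29, adjusted p = 0.00201, and 0.0134 to 0.0236 without any single NMP library). Dusp6, the phosphatase that reverses ERK activation, had 1142, 1081 and 893 against 11.7, 304 and 845, without overlap and without a call (log2 change -2.11 ± 0.94, adjusted p = 0.231). All 12 targets had negative changes, from -1.46 to -7.07, and Spry4 and Il17rd did not overlap between groups (adjusted p = 0.0119 and 0.0224).

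Genes of the epiblast and of pluripotent cells were still present in NMPs. Of 10 tested, 4 fell and none rose (median -3.67). Pou5f1, which encodes OCT4, had 731, 1374 and 345 normalized reads in NMPs and 0, 1.36 and 67.6 on day 4 without overlap (log2 change -7.27 ± 1.48, adjusted p = 0.00308), but no call remained without any single NMP library (0.0132 to 0.037). Utf1, a chromatin protein of pluripotent cells, had 938, 915 and 624 against 0, 0 and 52.5 (log2 change -8.93 ± 1.13, adjusted p = 2.06e-05). Zfp42 (Rex1) fell from 227, 131 and 390.0 to 0, 0 and 51.9 (adjusted p = 0.00111, and 0.0131 without NMP replicate 3). The de novo methyltransferase Dnmt3b fell from 2543, 2365 and 3062 to 448, 792 and 1529 (log2 change -1.75 ± 0.3, adjusted p = 0.000653, and 0.0112 without NMP replicate 3). Nanog and Esrrb, factors of naive pluripotency, had too few reads for a test, and Lin28a had 1115, 1165 and 1296 against 992, 1534 and 2664 (adjusted p = 0.263).

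Of 8 epithelial adhesion genes 5 fell and none rose, with a median of -5.64. Cdh1, E-cadherin, had 8103, 16933 and 9529 normalized reads in NMPs and 0.911, 198 and 959.8 on day 4 (log2 change -6.34 ± 1.15, adjusted p = 0.00113). Epcam had 7059, 10888 and 6032 against 0, 262 and 523 (adjusted p = 0.00184) and the tight junction gene Cldn6 2956, 4141 and 2715 against 0, 0 and 193 (adjusted p = 0.00203). Cldn7 and Esrp1, a splicing regulator of epithelia, fell by 5.78 and 7.74 on the log2 scale (adjusted p = 0.000959 and 0.000103). None of the 5 overlapped between groups. Without single NMP libraries the calls of Epcam (0.0134 to 0.0253) and Cldn6 (0.015 to 0.0215) were lost each time, that of Cdh1 without replicate 2 or 3 (0.0188 and 0.0108) and that of Cldn7 without replicate 1 or 2 (0.0127 and 0.0208). Cdh2, the N-cadherin of neural cells, was higher in every day 4 library (1357, 2082 and 2496 against 2791, 3632 and 5922) but just under the 2-fold limit (log2 change 0.98 ± 0.19, adjusted p = 0.00234). Snai1, Zeb1, Zeb2 and Fn1 were not called.

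RA pathway genes rose or did not pass. Of 18 tested, 6 rose and none fell, and the median was 1.16. Among receptors, Rarb, itself an RA target, had 26.5, 15.8 and 69.3 normalized reads in NMPs and 244, 851 and 1658 on day 4 (log2 change 4.88 ± 0.47, adjusted p = 4.75e-07). Rara, Rarg and the Rxr genes did not pass. The intracellular RA carriers stood well apart. Crabp2 had 469, 271 and 390.0 against 6278, 8748 and 14683 (log2 change 4.57 ± 0.18, adjusted p = 1.11e-12) and Crabp1 66.1, 78.8 and 4.08 against 1588, 2635 and 6434 (6.52 ± 0.51, adjusted p = 3.46e-08). Dhrs3, which returns retinal to retinol and so limits RA, had 22.3, 34.9 and 58.4 against 114, 343 and 1048 (adjusted p = 0.00118, with no call without NMP replicate 1 or 2, 0.0169 and 0.011).

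Meis1 and Meis2, homeobox cofactors induced by RA, were low or at 0 in NMPs. Meis1 had 81.8, 0 and 0 normalized reads there and 584, 1361 and 2387 on day 4 (log2 change 8.34 ± 0.8, adjusted p = 5.13e-07). Meis2 had 26.5, 18 and 0 against 374, 1119 and 1699 (6.98 ± 0.64, adjusted p = 3.03e-07), and its exons overlap an opposite-strand transcript. Cyp26a1, the enzyme that degrades RA and a direct RA target, did not pass. It had 0, 1.13 and 0 in NMPs and 0, 0 and 146 on day 4, with 10 of 16 day 4 libraries at 0 (log2 change 1.67 ± 1.63, adjusted p = 0.651). Aldh1a2, which makes RA in the trunk, had 9.92, 24.8 and 31.3 against 0, 80.4 and 223 (adjusted p = 0.981).

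The promoters of Rarb and Cyp26a1 are shown because both hold an RA response element while their readouts differed. Both are the 250 bases before the start in RefSeq on GRCm38.p6, 5′ to 3′ in the direction of the gene, at chr14:16575477-16575726 (minus strand) for Rarb and chr19:37697558-37697807 (plus strand) for Cyp26a1. Capitals mark copies of AGGTCA, or of its variants with the letters AGTTCA and with the letters GGTTCA, that repeat in the same direction with 5 bases between them, on either strand.
Rarb: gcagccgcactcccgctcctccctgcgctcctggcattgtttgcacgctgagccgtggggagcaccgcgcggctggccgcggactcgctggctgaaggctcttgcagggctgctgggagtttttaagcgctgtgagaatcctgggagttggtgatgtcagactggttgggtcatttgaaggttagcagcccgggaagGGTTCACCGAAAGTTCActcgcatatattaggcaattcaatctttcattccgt
Cyp26a1: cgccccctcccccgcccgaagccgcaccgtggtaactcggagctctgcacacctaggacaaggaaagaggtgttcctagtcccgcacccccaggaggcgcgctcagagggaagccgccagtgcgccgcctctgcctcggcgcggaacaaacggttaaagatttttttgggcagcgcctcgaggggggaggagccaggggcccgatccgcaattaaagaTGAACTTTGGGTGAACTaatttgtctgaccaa
In Rarb the element lies 53 to 37 bases before the start. In Cyp26a1 it lies 32 to 16 bases before it on the other strand, where it reads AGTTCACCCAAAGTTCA. Such an element was in 15 of 32851 windows (0.0457%) and in 2 of the 30 windows of RA pathway genes, these 2. The element was present both at a gene that was higher in all 16 day 4 libraries and at a gene that was at 0 in 10 of them. A sequence for GLI factors, the effectors of Shh signaling, was searched in the same windows. It was in 83 of 32851 (0.253%) and in 0 of 11 windows of Shh pathway genes.

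**Figure D4:**
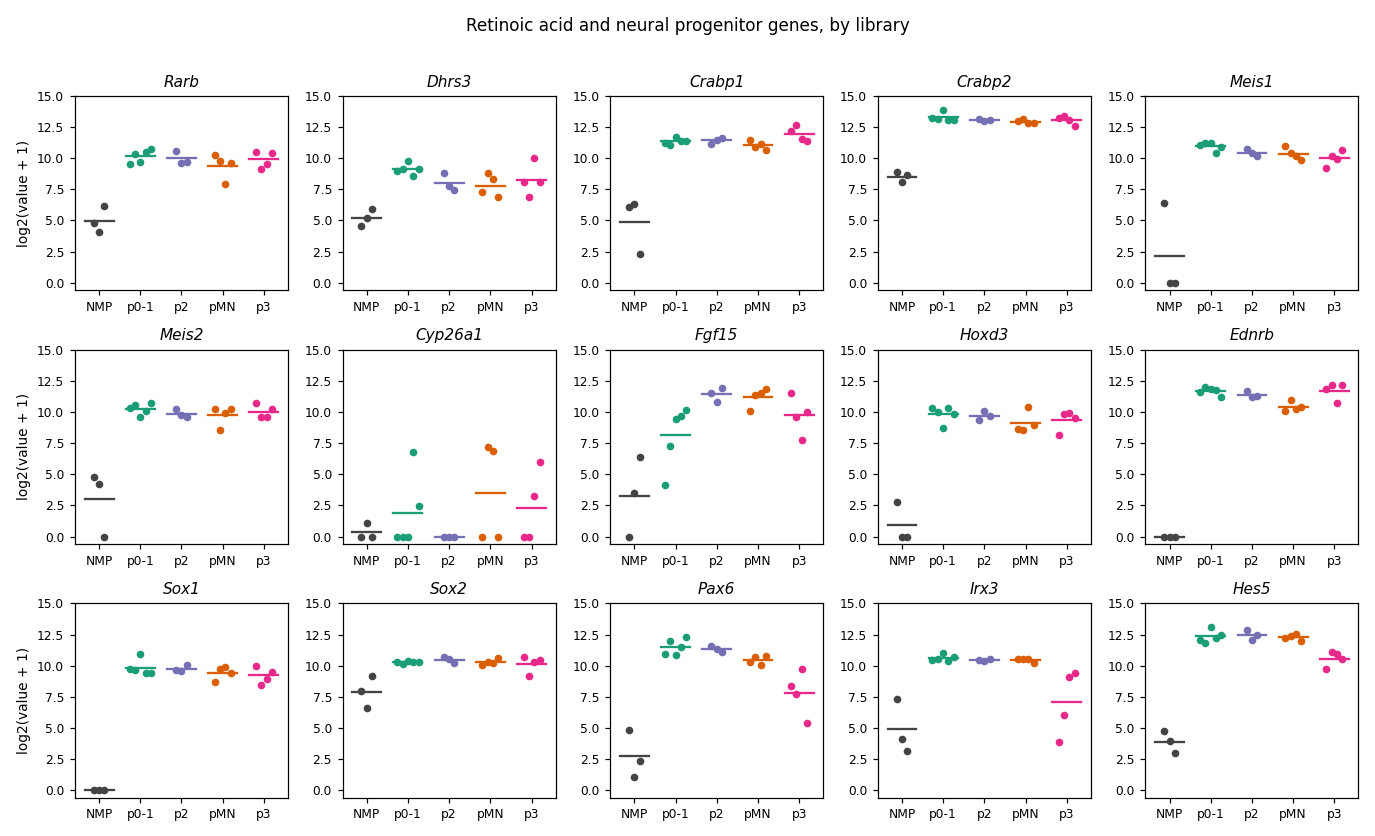
Normalized reads, as log2(value + 1) on the vertical axis, of 15 genes in the NMP and day 4 libraries, grouped by type. Each point is a library and each bar a group mean. Crabp2 had 271 to 469 normalized reads in NMPs and at least 6278 on day 4, whereas Cyp26a1 was at 0 in 10 of 16 day 4 libraries.

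Neural progenitor genes rose in part. Of 18 tested, 7 rose and none fell (median 1.78). Sox1, an early marker of neural commitment at chromosome 8, 12395519 to 12399555 (mm10), was at 0 in all 3 NMP libraries and at 357, 775 and 1962 on day 4, at least 201-fold higher (adjusted p = 1.12e-11). Sox2, whose protein was used to gate the day 4 cells, had 254, 95.6 and 578 against 593, 1255 and 1682 (log2 change 2.37 ± 0.36, adjusted p = 0.000165), and its call was lost with the number of genes detected as a covariate (0.0144). Pou3f2 and Rfx4, a POU and an RFX factor of neural progenitors, had 0, 6.75 and 0 and 14.1, 13.5 and 0 in NMPs against 269, 656 and 1616 and 729, 1706 and 2502 on day 4 (adjusted p = 6e-09 and 1.07e-08). For these genes every day 4 library was above every NMP library. Ncam1, a neural adhesion molecule, rose from 377, 288 and 613 to 1557, 2500.2 and 3959.7 (log2 change 2.59 ± 0.25, adjusted p = 6.66e-07). Sox9 and Sox21 also rose but with overlap (adjusted p = 0.00431 and 0.00488), and both calls were lost without NMP replicate 3 (0.0676 and 0.0602), that of Sox9 also without replicate 2 (0.0416) and that of Sox21 without replicate 1 (0.0338). Nes, Vim, Sox3 and Sox11, which NMPs already expressed, did not pass.

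Of 11 tested dorsoventral domain factors 5 rose, with the highest group median (4.66). The proteins of 4 genes in this group set the sort, so their transcripts are given as a check. Of these 4 genes 3 rose (median 5.97), and of the other 7 tested 2 rose (median 4.06). Pax6 had 27.3, 1.13 and 4.08 normalized reads in NMPs and 41.8, 1799 and 5185 on day 4 (log2 change 7.55 ± 0.66, adjusted p = 1.61e-07). Nkx6-1 had 1.65, 0 and 0 against 11.9, 197 and 744 (adjusted p = 5.52e-06). Olig2 rose over all types together (adjusted p = 0.00106, 0.0124 without NMP replicate 1 or 3 and 1.0 in edgeR) although 5 of 16 libraries were at 0, and Nkx2-2 had 103 normalized reads at most (adjusted p = 0.306). By type, Nkx6-1 had 11.9 to 52.4 normalized reads in p0-1, which was sorted without NKX6.1, against 143 to 498 in p2, 331 to 695 in pMN and 143 to 744 in p3, and it was called higher than in NMPs in p0-1 too (log2 change 4.21, adjusted p = 0.00666). Nkx2-2 was at 0 in p0-1 and had 0 to 0.915 in p2, 0 to 96 in pMN and 21.4 to 103 in p3, where its change from NMPs did not pass (log2 change 5.56, adjusted p = 0.0102). Its range in pMN thus overlapped that in p3, the type sorted by its protein. Outside the sorted proteins, Irx3, a homeobox factor of the intermediate neural tube, had 159.6, 16.9 and 8.15 against 13.9, 1407 and 2129 (adjusted p = 0.000623, and 0.012 and 0.0161 without NMP replicates 2 and 3). Pax6 shares exonic sequence with Elp4 on the other strand.

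Among Shh pathway genes, 1 of 13 rose (median 0.39). The count was 1 in edgeR, 2 with the number of genes detected as a covariate, 3 in DESeq2 and 4 with all 65 libraries in the fit. Scube2, not called here, was called higher with the covariate (adjusted p = 0.00661), with all 65 libraries (0.00393) and in DESeq2 (9.45e-24). Ptch1, which encodes the Shh receptor and is a target of the pathway, had 187, 370.2 and 319 normalized reads in NMPs and 349, 4524 and 10334 on day 4 with a small overlap (log2 change 3.35 ± 0.38, adjusted p = 4.67e-06). Gli1, another target, had 66.1, 29.3 and 43.5 against 0, 765 and 2087 and did not pass over all types (adjusted p = 0.249), and its exons overlap Arhgap9 on the other strand. By type the log2 change of Gli1 was -1.09 in p0-1 and 4.04, 4.99 and 4.41 in p2, pMN and p3. None of these passed (adjusted p = 0.871, 0.287, 0.0678 and 0.0937). Over all types Gli1 was called with 9 group means (0.00393) and with all 65 libraries in the fit (0.0056). Gas1, a coreceptor, had 194, 183 and 361 against 21.9, 1126 and 2656 (adjusted p = 0.17), but 0.000669 without p3 at 100 nM replicate 3, the library with the fewest genes. Smo, Sufu, Gli2 and Gli3 did not pass.

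In the BMP and Nodal group 1 of 17 tested genes rose and 2 fell (median 0.23, and -0.5 without NMP replicate 1). Fst, follistatin, which binds activin and BMP ligands, had 10586, 27999.9 and 17179 normalized reads in NMPs and 25.6, 294 and 1096 on day 4, with no overlap (log2 change -6.01 ± 0.58, adjusted p = 5.03e-07). Bmp4 had 122, 163 and 133 against 0, 0 and 58.5 and a call (adjusted p = 0.00918) that was lost without any single NMP library (0.0453 to 0.0614) and without 11 of the 16 day 4 libraries taken singly (0.0101 to 0.0152). Id2, a target of BMP signaling, rose from 175, 259 and 110.1 to 397, 889 and 1464 (log2 change 2.31 ± 0.36, adjusted p = 0.00023). Its relative Id1 had 173, 100.1 and 181 against 0, 222 and 446 (adjusted p = 0.937), and Nodal was too low to be tested, with 0, 87.8 and 55.7 in NMPs.

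Notch pathway genes gave 1 rise and 1 fall among 17 tested (median 0.48), both in the Hes family of repressors. Hes5, the target that keeps neural progenitors undifferentiated, had 25.6, 14.6 and 6.79 normalized reads in NMPs and 839, 4496 and 9084 on day 4 (log2 change 8.02 ± 0.32, adjusted p = 1.48e-12). Hes7, the oscillating gene of presomitic mesoderm, had 141, 159.8 and 220.1 against 0, 0 and 25.6 (log2 change -6.12 ± 1.03, adjusted p = 0.000517). Of the Delta ligands, Dll1 had 263, 239 and 506 against 0, 881 and 1411. It was at 0 in p3 at 100 nM replicate 3 and its test (adjusted p = 0.76) passed without that library (0.00348). Dll3 had 2271, 4668 and 1877 against 0, 334 and 807 (adjusted p = 0.0441, and 0.000206 without the same library).

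Neurogenesis genes had 1 rise among 11 tested, and their median (-0.18) changed sign with the scaling. Neurog2, a proneural factor, had 0.827, 0 and 0 normalized reads in NMPs and 0, 56.7 and 381 on day 4 (log2 change 4.5 ± 0.9, adjusted p = 0.00259). The call was lost without any single NMP library (0.0134 to 0.0302) and in edgeR (1.0). Tubb3, Map2 and Stmn2, structural genes of neurons, had negative changes that did not pass (adjusted p = 0.564, 0.637 and 0.615).

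Genes of metabolism and proliferation gave few calls. In glycolysis 2 of 17 genes fell (median -0.27), both transporters and no enzyme. Slc2a3, the glucose transporter GLUT3, had 12988, 7866 and 16413 normalized reads in NMPs and 1188, 2459 and 6161 on day 4 (log2 change -2.17 ± 0.35, adjusted p = 0.000362), and the lactate exporter Slc16a3 had 5410.0, 8946 and 6099 against 446, 1739.5 and 2428 (-2.14 ± 0.29, adjusted p = 4.96e-05). Neither overlapped, but with all 65 libraries in the fit both calls were lost (0.0462 and 0.244). The 13 enzymes had a median of -0.21, and the 12 TCA cycle enzymes had one of 0.06 with no call in limma (1 at an unadjusted p below 0.05). No gene of the S phase group (13 genes, median 0.41) or the G2 and M phase group (12 genes, median 0.64, all 12 changes positive) exceeded 2-fold with an adjusted p below 0.01 over all types together. An unadjusted p below 0.05 was found for 4 and 9 of these genes, all higher. Over all 13939 genes tested it was found for 2550, in either direction. edgeR and DESeq2 also called 0 genes in the TCA cycle, S phase and G2 and M phase groups. With the replicate number as a block 1 S phase gene, Mcm6, was called higher (log2 change 1.07, adjusted p = 0.00546). With no limit on size, 1 S phase gene and 2 genes of G2 and M phase had an adjusted p below 0.01 in the main fit. Top2a, for example, had 3222, 4267 and 3757 against 4911, 6887 and 9172 (log2 change 0.86 ± 0.14, adjusted p = 0.000461). Of 12 genes of Myc and ribosome biogenesis, Mycl and Mycn rose (adjusted p = 0.00134 and 0.00946). The call of Mycl was lost without NMP replicate 3 (0.0256) and that of Mycn without NMP replicate 1 (0.0711) or 2 (0.127) and without 10 day 4 libraries taken singly (0.01 to 0.015). Igf2bp3, an RNA-binding protein of growing embryonic tissue, rose from 1182, 1550.5 and 1868 to 2633, 3672 and 4828 (log2 change 1.27 ± 0.16, adjusted p = 2.23e-05).

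Only 19 of 39 Hox genes, the factors of head to tail position, reached a mean of 10, and 1 of them was called. Hoxd3 had 5.79, 0 and 0 normalized reads in NMPs and 283, 861 and 1313 on day 4 (log2 change 8.59 ± 0.57, adjusted p = 4.29e-09), with exons that overlap Gm38462 on the other strand. The median of the 19 was 0.15, and -0.45 without NMP replicate 2. Hoxb9, among the most posterior genes tested, had 217, 49.5 and 241 against 0, 41.1 and 344 (adjusted p = 0.423), and Hoxa10, Hoxc10 and Hoxd11 were at 0 in all 19 libraries.

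Over all genes that were called, averaged 100 or more in NMPs or in day 4 cells and did not overlap, the largest rise was that of Ednrb, the endothelin receptor B (chromosome 14, 103814615 to 103844476). It was at 0 in all NMP libraries and at 1069.9, 2746 and 4613 normalized reads on day 4, at least 685-fold higher (adjusted p = 9.34e-16). Robo2 and Unc5a, receptors for axon guidance cues, were also at 0 in NMPs and at 348, 737 and 1379.6 and 52.8, 384 and 1433 on day 4, at least 189.6-fold and 126-fold higher. No NMP library had a read of these 3 genes. Also among the 10 largest rises were Sox1, ccdc198, Hoxd3, Meis1, Mir219a-2 and Sox1ot, the last of which spans Sox1 on the same strand, so that reads may be shared. Reads of Mir219a-2 (211, 318 and 442 on day 4) come from its precursor region, which overlaps Mir219b on the other strand, and do not measure the mature miRNA.

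Under the same conditions the largest fall was that of Wnt6, a Wnt ligand outside the group above. It had 1857, 1629 and 2179.7 normalized reads in NMPs and reads in 1 day 4 library (4.79, log2 change -10.72 ± 0.72, adjusted p = 4.29e-09). Btla, an immune receptor gene, had 163, 1019 and 1529 in NMPs and was at 0 in all 16 day 4 libraries, at least 232-fold lower (adjusted p = 2e-08). Tdh, the threonine dehydrogenase of pluripotent mouse cells, had 633, 1669 and 923 against 0, 0 and 96.3 (adjusted p = 1.69e-05). Lzts1 and Slc5a5, the sodium iodide transporter, had 1097, 727 and 625 and 838, 1180.3 and 682 in NMPs and were at 0 in 15 and 13 of the day 4 libraries. T, Sp5, Cldn6, Notum and Utf1 completed the 10. DESeq2 called neither Wnt6 (adjusted p = 0.0227), Btla (0.0286), Lzts1 (0.055) nor Slc5a5 (0.091).

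Each type was then compared alone with the same 3 NMP libraries. The counts were 343 genes for p0-1 (2.46%), 266 for p2 (1.91%), 361 for pMN (2.59%) and 419 for p3 (3.01%). Higher than in NMPs were 144 (1.03%), 121 (0.868%), 139 (0.997%) and 169 (1.21%) genes in the same order, and lower were 199 (1.43%), 145 (1.04%), 222 (1.59%) and 250 (1.79%). Median changes over all genes were -0.19, -0.14, -0.35 and -0.53 in the same order, lowest in p3, the type that holds the library with the fewest genes. Since the type comparisons share their NMP libraries and differ in size, their counts are given side by side only. Without NMP replicate 2 they were 210, 153, 236 and 251, and p3 had 273 without NMP replicate 3. For p2, the smallest group, 147 to 170 genes were called without any 1 of its own libraries (156 without 10 nM replicate 3, 170 without 100 nM replicate 2 and 147 without 100 nM replicate 3).

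The pathway changes were read in each type. Of the 12 NMP factors, 6 fell in p0-1, 6 in p2, 5 in pMN and 7 in p3. T had normalized reads of 0 to 1.23 in p0-1, 0 to 76.2 in p2, 0 to 70.3 in pMN and 0 to 0.971 in p3, with log2 changes of -10.78, -8.92, -9.47 and -10.76 (adjusted p = 9.82e-05, 0.00323, 0.000686 and 0.000186). A test of the differences among the types gave an adjusted p of 0.858 for T. Of the 18 RA pathway genes, 6 rose in p0-1 and 5 in each other type. Rarb rose by 5.16, 4.99, 4.4 and 4.91 on the log2 scale (adjusted p = 2.67e-06, 2.31e-05, 3.63e-05 and 9.18e-06, among types 0.852). Wnt genes gave 6 rises and 5 falls in p0-1, 4 and 5 in p2, 4 and 6 in pMN and 4 and 6 in p3, and neural progenitor genes rose 6, 5, 5 and 5 times with no fall. Cell cycle genes, of which none was called over all types together in the main fit, gave a few calls by type, named after their values were seen. In p3 these were 1 of 13 S phase genes, Mcm7 of the replicative helicase (1.04, adjusted p = 0.0011), and 3 of 12 genes of G2 and M phase, the mitotic kinase Plk1 (1.26, 0.00203), Top2a (1.02, 0.000814) and Ube2c (1.39, 0.00273), all higher on the log2 scale. In pMN Plk1 was higher as well (1.12, adjusted p = 0.00588).

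The test of differences among the 4 types, in which the NMP mean cancels, called 10 genes (0.0717%), of which 9 are described here. Of these, 5 belong to the gene groups, and Olig2, 1 of the 5, was used for sorting. Dbx1, a homeobox factor of the p0 domain, had 56.1 to 329.6 normalized reads in p0-1 and 0 in all other libraries including NMPs (adjusted p among types = 3.26e-05, but 0.0966 in edgeR). Nkx2-9, a relative of Nkx2-2 in the ventral neural tube, had 0.368 ± 0.822 (SD, n = 5) in p0-1, 121 ± 113 (n = 3) in p2, 684 ± 383 (n = 4) in pMN and 2949 ± 1358 (n = 4) in p3 (adjusted p = 0.000444 in limma, and 0.0388 without the 5 libraries of low detection). Its rise over all types was called (adjusted p = 0.00208) but not without any single NMP library (0.0156 to 0.0184). Neurog2 was at 0 in all p3 libraries and had 14.6 to 91.9 in p0-1, 62.2 to 192 in p2 and 101 to 381 in pMN (adjusted p among types = 0.00299). This call was lost in 11 of 32 alternatives, among them each that left out a p3 library (0.0107 to 0.0151), the replicate block (0.0107), edgeR (0.0664) and that without the 5 libraries of low detection (0.058).

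The Shh receptor gene also differed among types. Ptch1 had 349 to 1438 normalized reads in p0-1, 2141 to 5901 in p2, 4054 to 8494 in pMN and 4994 to 10334 in p3 (adjusted p among types = 0.000212, and 0.0221 without the 5 libraries of low detection). Its change from NMPs did not pass in p0-1 (log2 change 1.2, adjusted p = 0.154) and was 3.65, 4.44 and 4.73 in p2, pMN and p3. The types were sorted from different SAG concentrations, 0 and 10 nM for p0-1, 10 and 100 nM for p2 and 100 and 500 nM for pMN and p3. Between p0-1 and pMN or p3, which share no concentration, type and concentration cannot be told apart here. p0-1 and p2 share 10 nM, with 1 p2 library there, and their Ptch1 ranges did not overlap. Effects of type at a shared concentration were not tested.

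The other calls described were Olig2, Igfbp5, Timp3, Chac2 and 6430503K07Rik, named after their values were seen. Olig2 was at 0 in p0-1 and had 447 to 1801 normalized reads in pMN, against 52.6 to 188 in p2 and 33.7 to 415 in p3. It was called higher than in NMPs in p2 (log2 change 6.54, adjusted p = 0.00242) and p3 (6.57, 0.000844) as well as in pMN (9.62, 1.23e-05). Timp3, an inhibitor of matrix metalloproteases, and Igfbp5, a binding protein of insulin-like growth factors, had 411 ± 189 and 208 ± 58.1 in p0-1 (SD, n = 5) against 6978 ± 1289 and 3982 ± 1529 in p3 (n = 4), with adjusted p among types of 3.07e-05 and 0.000102 in limma. Both had their highest mean in p3. The call of Igfbp5 was lost without the 5 libraries of low detection (0.0138) and that of Timp3 with all 65 libraries in the fit (0.0952). Chac2 had at most 0.971 in p3 against 147 to 639 in p0-1, and 6430503K07Rik had 70.2 to 132 in p3 and 0 in p0-1 and pMN. The call of Chac2 was lost in edgeR (0.0122) and with the number of genes detected as a covariate (0.0128). That of 6430503K07Rik was lost in 6 of 32 alternatives, with an adjusted p of 0.425 in edgeR, 0.311 in DESeq2 and 0.0116 without p3 at 100 nM replicate 3.

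**Figure D5:**
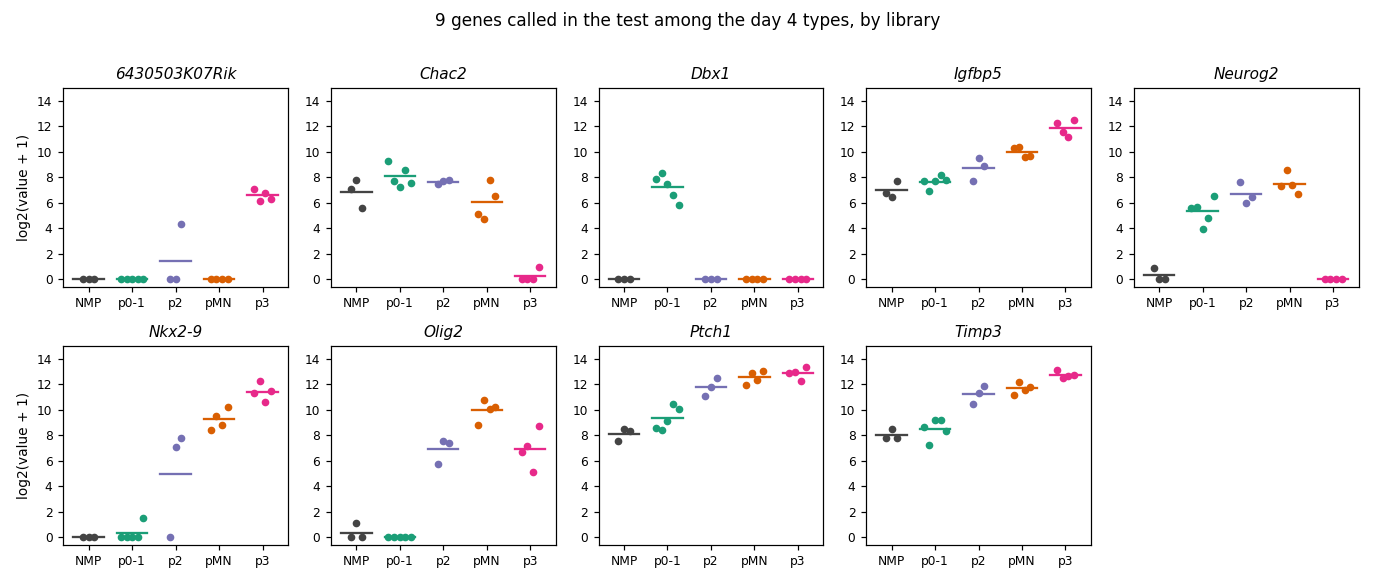
Normalized reads, as log2(value + 1) on the vertical axis, of 9 genes that differed among the day 4 types, in NMPs and in each type. Each point is a library and each bar a group mean. Dbx1 has reads in p0-1 only, Neurog2 is at 0 in p3, and Ptch1 and Timp3 have their lowest day 4 values in p0-1.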

How the data were processed

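RNA of fixed, sorted cells was amplified as full-length cDNA and sequenced in bulk. The authors aligned reads to mm10 with ERCC sequences (STAR in an nf-core pipeline), counted them per refGene gene with featureCounts without duplicates, removed libraries that failed quality control and deposited a gene-level signal, namely counts divided by a size factor for each library. Whether strand was used in counting is not given in the sources used here. The deposited annotation holds gene positions, used here as other values. All 253209 values above 0 came out as whole reads within 0.001 (100%), and 25239 genes were listed.

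limma 3.58.1 (R 4.3.3) was fitted to log2(value + 1) with a variance trend and a mean for each of 5 groups, over 13939 genes that averaged 10 or more in the 19 libraries (residual degrees of freedom 14, prior 5.4). Genes found only in NMPs pass this mean less easily, since 16 libraries are of day 4. Log2 changes on this scale understate those of low genes. Calls needed a Benjamini-Hochberg adjusted p below 0.01 and more than 2-fold. Every adjusted p is from limma unless another tool is named. Means are given ± SD and changes ± SE. A fold against a group at 0 is a lower limit from 3 reads per library, which covers counting error only. edgeR 4.0.16 and DESeq2 1.42.0 on the recovered reads, other normalisations, filters, groupings, weights and left-out libraries were alternatives.

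Genes were named by a rule: 20 fixed genes, up to 3 per direction and list, the 10 largest changes per direction over all genes (called, averaging 100 or more in either group, no overlap), and list genes that differed among types. Of the genes so named, 2 are not reported here. Further list members serve as examples chosen with their values known. The libraries and gene lists were chosen with earlier results of these data known. Replicate numbers were not used to pair the libraries in the main fit. Deviations from the type means correlated little between libraries of the same number (median 0.028 over 16 pairs with NMPs and 0.014 over 38 pairs of day 4 libraries). For different numbers the medians were -0.016 over 32 pairs and -0.006 over 57 pairs. Such values cannot show that the libraries were independent. The paper sorted several cell types from each condition, so day 4 libraries may share a culture. Promoters are from RefSeq (GRCm38.p6).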

Additional observations from a re-analysis of the deposited data

Results flagged for a closer look

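Within each type, libraries far from the others were sought for the named genes by Dixon's criterion at its 95% level. Of 166 groups of 4 or 5 libraries 31 are given as marked. The 166 also hold groups of genes not reported here, whose marks are left out. The rate of about 1 in 20 by chance does not apply where all other libraries are at 0, since any single read is then marked. Many of the 31 were genes at or near 0 in all but 1 library, with the value of that library in normalized reads as follows. In p0-1 they were T (1.23, 10 nM replicate 2), Utf1 (52.5), Tdh (96.3) and Slc5a5 (26.3) in 0 nM replicate 2, Fgf17 (15.6) and Nkx2-9 (1.84) in 10 nM replicate 3, and Lzts1 (7.37, 10 nM replicate 2). In pMN they were T (70.3), Notum (60.7) and Wnt6 (4.79) in 500 nM replicate 3, Tbx6 (93.0) and Zfp42 (25.2) in 500 nM replicate 2, Bmp4 (0.8, 100 nM replicate 3) and Slc5a5 (4.8, 100 nM replicate 2). In p3 they were T (0.971), Etv4 (20.4) and Esrp1 (7.77) in 500 nM replicate 3, Nkx1-2 (44.7) and Sp5 (1.57) in 500 nM replicate 2, and Pou5f1 (3.9, 500 nM replicate 1).

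The other marked libraries were as follows. In p3 at 100 nM replicate 3, the library with the fewest genes detected, Gli1 had 508 normalized reads (next library 1170.0), and Id1 and Dll1 had 0 (next 188 and 362). In p0-1 at 10 nM replicate 1, another library of low detection, Sox1 had 1960.0 (next 874), Cdh1 0.911 (next 107), Hoxd3 418 (next 921), ccdc198 532 (next 932) and Unc5a 52.8 (next 272). Dusp6 had 21.6 in pMN at 500 nM replicate 3 (next 373). In p3 at 500 nM replicate 2, Rfx4 had 932 (next 2050.0) and Slc16a3 had 2160.0 (next 1870.0).

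The change from the NMP state differed among the 4 day 4 types for 4 of the named genes described by the moderated F test in limma. The adjusted p was 0.000212 for Ptch1, 0.00299 for Neurog2, 0.000444 for Nkx2-9 and 3.26e-05 for Dbx1. The 4 type changes spanned 3.53, 7.5, 11.11 and 7.24 on the log2 scale in that order.

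In libraries of days 5 and 6, which entered only the alternative fit over all 65 libraries, Fgf17 and Bmp4 exceeded the lowest NMP library. Fgf17 had 95.4 normalized reads in p3 at 500 nM on day 5 (replicate 2) and 76.6 in p2 at 10 nM on day 6 (replicate 2), against 42.1 in the lowest NMP library. Bmp4 had 285 in p0-1 at 0 nM on day 5 (replicate 2) and 134 in pMN at 500 nM on day 5 (replicate 3), against 122. Each was in 1 library of its group.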

How the results depend on the processing

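No called gene among the 67 that the rule named turned direction in any of the 33 alternatives that gave it an adjusted p. Some group medians did. That of BMP genes was 0.23 and became -0.29 with the replicate block, -0.39 with no filter on low values and -0.5 and -0.04 without NMP replicates 1 and 2, that of Hox genes was 0.15 and became -0.45 without NMP replicate 2, and that of TCA cycle genes was 0.06 and became -0.17 without NMP replicate 3. The mesoderm median (-0.17) became 1.22 and the neurogenesis median (-0.18) 1.05 after quantile normalisation, and with no filter the neural crest and fibroblast medians (1.23 and 0.71) became -0.95 and -0.85. With the number of genes detected as a covariate the epiblast median went from -3.67 to -2.04 and the Shh median from 0.39 to 1.54, and the RA median went from 1.16 to 2.13 after quantile normalisation. Of the 67 genes that the rule named, 57 were called, and 33 of these lost the call in no alternative that gave them an adjusted p. Some of the 67 had none in DESeq2 or with a mean of at least 100. The 510 calls of the pooled comparison became 1172 with array weights, 265 with the number of genes detected as a covariate, 322 with a mean of at least 100 and 932 with no filter on low values, and 297 to 692 when libraries were left out (297 to 579 for single libraries, 692 without the 5 day 4 libraries of low detection, chosen after seeing the data). The 343 calls of p0-1 became 944 with array weights, 175 in edgeR and 210 to 399 without single libraries (501 without the 5). The 266 of p2 became 851 with array weights, 130 in edgeR, 172 with a mean of at least 100 and 147 to 305 without single libraries (442 without the 5). The 361 of pMN became 543 in DESeq2, 658 with array weights, 174 in edgeR, 159 with the covariate, 222 with a mean of at least 100 and 236 to 413. The 419 of p3 became 871 with 9 group means, 663 in DESeq2, 764 with all 65 libraries, 197 in edgeR, 129 with the covariate, 274 with a mean of at least 100 and 251 to 482. The 10 genes that differed among types became 255 with 9 group means, 49 in DESeq2, 252 with all 65 libraries, 5 in edgeR, 6 with the covariate and 9 to 15. The causes were not tested. With the replicate number as a block, the pooled comparison gave 534 calls (213 higher, 321 lower), and all 67 genes kept their side of the threshold in it, while the call of Sox21, another list member, was lost (0.0101), as was that of Neurog2 among types (0.0107). The sets of 3 NMP libraries and of 3 to 5 libraries per type, with 9718 to 15963 genes detected, limit what can be called among genes with few reads.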
